A study of Mus musculus with 12 samples.

Results

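The integrated stress response and the unfolded protein response were followed through 35 genes, taken from the table of normalized counts by gene name, of 23586 genes in all. They form 2 branches. The first, of 20 genes, runs from the transcription factor Atf4 through its target genes to the kinase Eif2ak3 and is called the ATF4 branch. The second, of 15 genes, holds the chaperones, folding enzymes and degradation factors of the endoplasmic reticulum (ER) and is called the ER chaperones. Every member was found once, and all 35 passed the filter on low values, a level of 10 normalized counts reached by 3 or more libraries. The RNA came from cultured mouse muscle stem cells, which regenerate muscle fibres, with the reporter genotype Pax3nLacZ-IRES-GFP, which all groups shared. Cells were sorted by GFP into PAX3-positive and PAX3-negative populations, grown in medium with 20% serum and basic FGF at 4 ng/mL, and given 2 µg of plasmid by Lipofectamine: either pCR3-Six2, which encodes the homeodomain factor SIX2, or empty pCR3. The 4 groups, with 3 libraries each, are GFP-negative control, GFP-negative SIX2, GFP-positive control and GFP-positive SIX2, and each library came from at least 50000 cells. Animal age and strain are not given in the sources used here, and the labels do not say whether libraries of a group are separate animals, so p-values cover the spread between these libraries, which may be technical.

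As background, both responses adjust protein synthesis to what a cell can fold and feed. Kinases that sense ER stress, amino acid shortage, viral RNA or heme shortage phosphorylate the initiation factor eIF2alpha, which lowers general translation while ATF4 protein is made, and ATF4 then induces genes of amino acid uptake, amino acid synthesis and redox balance. In parallel, the ER sensors ATF6 and IRE1, the latter through spliced XBP1, induce the chaperones that fold secreted and membrane proteins. ATF4 is regulated largely in translation and XBP1 by splicing, so the gene-level read counts used here do not show the activity of either protein. Muscle progenitors use eIF2alpha phosphorylation in keeping quiescence, and fusing myoblasts pass through ER stress signalling.

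Depth, in units of 1e6 reads, was 12.4 to 33.2 for the GFP-negative control libraries, 34.0 to 40.2 in GFP-negative SIX2, 31.3 to 47.3 in GFP-positive control and 12.6 to 15.5 in GFP-positive SIX2. Depth thus differed with the plasmid label, in opposite directions in the 2 populations. Members other than Cebpb had between 29 and 34437 reads in any library. The labels state that transfection was checked by RT-qPCR of Six2. In these libraries Six2 was low, with 2 to 36 reads and 3.37 to 28.6 normalized counts, and gave no check of the plasmid labels. Its log2 change by plasmid label was 0.80 ± 0.68 (SE) in the GFP-negative population and 1.26 ± 0.68 in the GFP-positive one (limma-trend adjusted p = 0.421 and 0.209). At so few reads, this neither shows nor excludes a rise of Six2. The groups are therefore named by their labels, and every direction below is one between labels. Pax3 fell with the SIX2 label in both populations (log2 −2.06 and −2.82). It did not pass the threshold between libraries labelled GFP-positive and GFP-negative. The muscle lineage markers Pax7, Myf5 and Myod1 were present in every library, at 82.5 to 184, 1420.1 to 4657 and 14410 to 19016 normalized counts. Pax7 and Myf5 were called higher with the SIX2 label in both populations, and Myod1 in neither. Endothelial markers summed to at most 102 normalized counts in any library and immune markers to at most 58.0. Only 1 of 8 endothelial markers, Egfl7, and 2 of 6 immune markers passed the filter and were tested. Egfl7 rose in GFP-positive cells, and 1 of the 2 immune markers, Csf1r, rose in both populations.

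The start of each gene was read for known response elements, since the members of a branch are thought to share them. RefSeq promoter windows of the build GRCm38.p6, from 250 bases before to 50 after the start, matched 32 of the 35 members, with 35 windows in all because some genes have several starts. The C/EBP-ATF composite element that ATF4 binds was searched as TGATGNAA on both strands. It occurred in windows of 6 of 19 ATF4 branch genes (Trib3, Chac1, Asns, Slc7a11, Vldlr and Nupr1), of 1 of 13 ER chaperones (Herpud1), and in 3.97% of 32851 windows of all genes. Its variant TTGCATCA, every match of which is also a match of the first motif on the other strand, occurred in 4 and 1 of these genes and in 0.895% of all windows. The ER stress element bound by ATF6, searched as CCAAT, 9 bases of any kind and CCACG, occurred in 0 of 19 ATF4 branch genes, in 6 of 13 ER chaperones (Hspa5, Hsp90b1, Calr, Canx, Pdia6 and Creld2) and in 0.119% of all windows. A second such element, ATTGG, 1 base and CCACG, occurred in Herpud1 and in 0.0365% of windows, and TGACGTGG in no member and 0.676%. By window instead of gene, the first motif occurred in 6 of 22 ATF4 branch windows and in 1 of 13 ER chaperone windows. The first ER stress element occurred in 0 of 22 and 6 of 13. These are matches of letters, not measured binding, and no match says only that the letters are not in this window.

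The 250 bases before the RefSeq start are shown for 4 members of each branch that carry a motif, so that the elements of the branches can be compared. They are written 5′ to 3′ on the strand of the gene, in lower case, with the motif matches in capitals. Chac1 lies at chr2:119350992-119351241 on the plus strand, Asns at chr6:7693210-7693459 on the minus strand, Slc7a11 at chr3:50443614-50443863 on the minus strand and Nupr1 at chr7:126625471-126625720 on the minus strand. Hspa5 lies at chr2:34771840-34772089 on the plus strand, Hsp90b1 at chr10:86705445-86705694 on the minus strand, Creld2 at chr15:88819396-88819645 on the plus strand and Herpud1 at chr8:94386179-94386428 on the plus strand.
Chac1: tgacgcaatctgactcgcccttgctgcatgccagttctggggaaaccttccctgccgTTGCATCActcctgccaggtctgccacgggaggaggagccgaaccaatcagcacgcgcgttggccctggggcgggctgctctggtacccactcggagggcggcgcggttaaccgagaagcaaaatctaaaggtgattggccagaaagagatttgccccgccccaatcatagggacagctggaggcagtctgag
Asns: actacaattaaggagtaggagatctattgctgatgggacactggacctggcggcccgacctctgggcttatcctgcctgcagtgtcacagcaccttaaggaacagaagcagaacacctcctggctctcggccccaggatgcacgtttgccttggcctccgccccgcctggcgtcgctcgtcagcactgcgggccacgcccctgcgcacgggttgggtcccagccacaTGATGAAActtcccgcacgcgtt
Slc7a11: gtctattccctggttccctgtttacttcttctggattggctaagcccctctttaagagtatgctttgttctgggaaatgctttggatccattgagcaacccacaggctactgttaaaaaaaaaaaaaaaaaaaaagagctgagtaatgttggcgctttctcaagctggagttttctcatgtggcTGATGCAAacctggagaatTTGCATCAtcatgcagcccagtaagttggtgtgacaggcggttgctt
Nupr1: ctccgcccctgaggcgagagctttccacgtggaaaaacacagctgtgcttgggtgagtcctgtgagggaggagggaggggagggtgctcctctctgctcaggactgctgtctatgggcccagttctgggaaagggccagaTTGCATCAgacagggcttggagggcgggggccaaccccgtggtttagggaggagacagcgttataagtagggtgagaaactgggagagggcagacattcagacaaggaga
Hspa5: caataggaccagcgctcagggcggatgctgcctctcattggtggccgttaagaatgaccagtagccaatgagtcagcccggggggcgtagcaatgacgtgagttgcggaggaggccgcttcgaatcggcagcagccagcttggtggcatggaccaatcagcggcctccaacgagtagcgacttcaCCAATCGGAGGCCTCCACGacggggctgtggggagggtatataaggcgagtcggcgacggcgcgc
Hsp90b1: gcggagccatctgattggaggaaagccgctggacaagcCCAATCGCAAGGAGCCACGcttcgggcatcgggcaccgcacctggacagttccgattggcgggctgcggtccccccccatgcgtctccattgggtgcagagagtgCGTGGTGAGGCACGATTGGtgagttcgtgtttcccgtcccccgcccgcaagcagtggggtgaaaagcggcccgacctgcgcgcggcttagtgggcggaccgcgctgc
Creld2: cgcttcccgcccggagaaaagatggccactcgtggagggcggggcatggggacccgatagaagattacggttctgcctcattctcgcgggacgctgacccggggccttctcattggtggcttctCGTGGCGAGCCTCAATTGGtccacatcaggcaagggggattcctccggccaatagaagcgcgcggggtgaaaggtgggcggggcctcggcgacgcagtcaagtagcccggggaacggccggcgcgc
Herpud1: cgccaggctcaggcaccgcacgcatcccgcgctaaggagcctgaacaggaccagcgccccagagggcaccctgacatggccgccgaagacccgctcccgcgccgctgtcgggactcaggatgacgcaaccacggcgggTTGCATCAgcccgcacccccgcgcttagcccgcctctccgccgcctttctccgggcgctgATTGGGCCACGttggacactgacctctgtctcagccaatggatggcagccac
Slc7a11 carried the composite element at 2 places, whose first bases lie 66 and 47 bases before the start, and Chac1, Nupr1 and Asns carried it once, 193, 110 and 23 bases before. Hsp90b1 carried the ER stress element at 2 places, 212 and 107 bases before the start, Hspa5 at 65 and Creld2 at 126. Herpud1 held the composite element at 112 bases and the second ER stress element at 52 bases before its start.

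The first question of the design is what the SIX2 label changes in each sorted population. In GFP-negative libraries 12 of the 20 ATF4 branch genes rose with the SIX2 label and none fell, and 6 of the 15 ER chaperones rose and 2 fell. In GFP-positive libraries 13 of 20 ATF4 branch genes rose and none fell, and 3 of 15 ER chaperones rose and none fell. Calls are from limma-trend across all 14580 genes tested, with all 12 libraries in the fit and a Benjamini-Hochberg adjusted p under 0.05. Of all tested genes, 13.6% were called higher and 14.3% lower in GFP-negative libraries, and 12.1% higher and 11.2% lower in GFP-positive libraries. The share called higher was 60.0% and 65.0% of the ATF4 branch and 40.0% and 20.0% of the ER chaperones, in GFP-negative and GFP-positive libraries. The median log2 change was 0.40 and 0.49 for the ATF4 branch and 0.19 and 0.09 for the ER chaperones, beside 0.00 and −0.01 for all genes tested. In both populations at once 9 ATF4 branch genes rose (Trib3, Chac1, Asns, Psat1, Phgdh, Shmt2, Mthfd2, Sesn2 and Nupr1), and 1 ER chaperone did (Creld2).

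**Figure D1:**
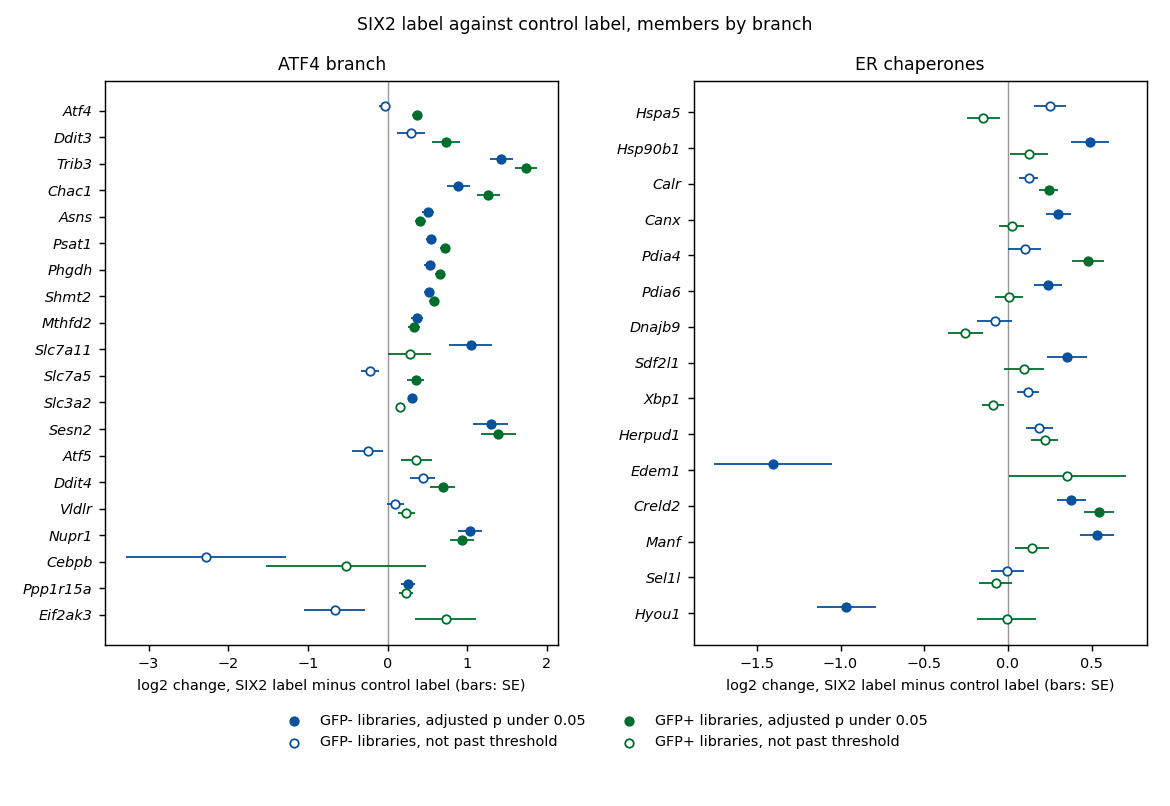
Log2 change of each member between SIX2-labelled and control-labelled libraries, in GFP-negative (blue) and GFP-positive (green) libraries, with SE bars; filled points passed the threshold (limma-trend adjusted p under 0.05). The 9 ATF4 branch genes called in both populations lie between 0.33 and 1.74, and Edem1 and Hyou1 are the called members left of 0, in GFP-negative libraries. The 2 panels have different scales.

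Other features moved with the plasmid label as well. All 12 genes of a proliferation list (among them Mki67 and Ccnb1) rose in both populations, with summed normalized counts of 14506 to 16221 against 28425 to 30608 in GFP-negative cells and 10381 to 12635 against 23183 to 27834 in GFP-positive cells. Markers of differentiating myocytes fell, 7 of 8 in GFP-negative and 8 of 8 in GFP-positive libraries, with sums of 1156703 to 1228599 against 848993 to 915258 and of 1266213 to 1307023 against 938710 to 1070668. Of 10 muscle stem cell and myoblast markers, 3 rose (Pax7, Myf5 and Vcam1) and 4 fell in GFP-negative libraries. The same 3 rose and 2 fell in GFP-positive ones. The median log2 change of these 10 markers was below 0 in both populations, at −0.17 and −0.04. Their sums, without overlap between labels, were 373829 to 388889 under control and 271538 to 309873 under SIX2 in GFP-negative cells, and 367434 to 385656 and 328370 to 359658 in GFP-positive cells. Of 8 fibro-adipogenic markers 6 passed the filter, and Ly6a and Smoc2 rose in both populations. Their summed level was 3404 to 3793 against 3411 to 3810 in GFP-negative cells and 2773 to 3269 against 2974 to 3191 in GFP-positive cells. Of 5 Schwann cell markers 3 passed the filter, and 2 had under 10 reads in every library. Of the 3 tested, 1 fell in each population, and their median log2 changes were 0.18 and −0.09. The sums over all 5 were 467 to 575 against 306 to 350 and 556 to 651 against 272 to 360.5. Of 7 pericyte markers 6 passed the filter. Of these 6, 2 rose and 1 fell in GFP-negative and 3 rose and 1 fell in GFP-positive cells. The sums over all 7 were 2573 to 3949 over all libraries. In bulk RNA, fewer cells of a type and less RNA per cell cannot be told apart, and the part of these shifts, or of depth, in the members' changes was not tested.

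Among the regulators, Trib3 and Nupr1 rose in both populations and Atf4 and Ddit3 passed the threshold in GFP-positive cells. Trib3 (GRCm38 chr2:152337422-152344032, minus strand), a pseudokinase induced by ATF4 that dampens the response, had 206, 189 and 199.8 in GFP-negative cells under the control label and 532, 572 and 502 under the SIX2 label, and 173, 254 and 256 in GFP-positive cells under control and 765, 777 and 707 under SIX2. These and all following library values are normalized counts, listed for libraries 1 to 3 of each group. The groups with the SIX2 label lay above both control groups without overlap, and the GFP-positive SIX2 libraries were the highest. The log2 change was 1.43 ± 0.14 (SE) in GFP-negative cells and 1.74 ± 0.14 in GFP-positive cells (limma-trend adjusted p = 1.71e-05 and 4.47e-06). Nupr1, a stress-induced chromatin protein, had 221, 162 and 156 in GFP-negative cells under the control label and 358, 378 and 352 under the SIX2 label, and 175, 172 and 182 in GFP-positive cells under control and 368, 359 and 293 under SIX2. It was higher in all SIX2-labelled libraries than in any control-labelled one, with log2 changes of 1.03 ± 0.15 and 0.94 ± 0.15 (adjusted p = 0.000251 and 0.000611).

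Atf4 (GRCm38 chr15:80255184-80257541, plus strand) rose in the GFP-positive population. It had 3545, 3352 and 3064 in GFP-negative cells under the control label and 3418, 3171 and 3111 under the SIX2 label, and 3273, 3054 and 3077 in GFP-positive cells under control and 4134, 3997 and 4009 under SIX2. The GFP-positive SIX2 libraries stood above the other 9, which overlapped. Its log2 change was 0.37 ± 0.07 in GFP-positive cells (limma-trend adjusted p = 0.00146). In GFP-negative cells it was −0.04 ± 0.07 (adjusted p = 0.724). Ddit3, which encodes the pro-apoptotic factor CHOP, rose in GFP-positive libraries from 155 ± 4.55 to 261 ± 51.1 normalized counts (log2 0.73 ± 0.18, adjusted p = 0.0086). In GFP-negative libraries it had 146, 184 and 188 against 183, 246 and 207, which overlap (log2 0.30, adjusted p = 0.235). Its exons share 68 bases with Mars, a tRNA synthetase gene on the other strand, and 105 with another gene model named Ddit3 on the same strand. Mars is listed below as Mars1, which was called higher in both populations. The part of its reads in the Ddit3 change was not tested.

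Ppp1r15a, the stress-induced subunit of the eIF2alpha phosphatase, rose in GFP-negative libraries at the edge of the threshold (log2 0.26 ± 0.09, limma-trend adjusted p = 0.0495). The groups overlapped, and 13 of 21 alternative settings ended this call. In GFP-positive libraries its log2 change was 0.23 (adjusted p = 0.0818). Atf5, a factor related to ATF4, had log2 changes of −0.25 and 0.36, neither past the threshold (adjusted p = 0.383 and 0.212). Cebpb, a partner of these factors, was the lowest member, with 0 to 73 reads and GFP-positive SIX2 library 3 at 0, and passed no comparison in the fit to all 12 libraries. It had 64.3, 47.6 and 68.5 normalized counts in the GFP-negative control libraries, above the other 9, and a log2 change of −2.28 ± 1.00 there (adjusted p = 0.108), and 5 of 21 alternatives called it lower. Among these were limma-trend with only the compared libraries (adjusted p = 0.00189) and without GFP-positive SIX2 library 3 (adjusted p = 0.0109), and DESeq2 (adjusted p = 0.0122). Without that library Cebpb was also called lower between GFP labels under control (limma-trend adjusted p = 0.0358). It shares 312 exon bases with Tmem189 on the other strand, and strand is not marked by this protocol as far as it is described.

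The ATF4 branch genes of serine and one-carbon metabolism rose together in both populations. They lead from a glycolytic intermediate to serine and on to mitochondrial folate units. Phgdh, the first enzyme of serine synthesis, rose from 7455 ± 348 to 10733 ± 554 normalized counts (SD, n = 3) in GFP-negative cells and from 7063 ± 476 to 11154 ± 419 in GFP-positive cells. In single libraries Phgdh had 7853, 7204 and 7309 in GFP-negative cells under the control label and 10309.9, 11360.1 and 10529 under the SIX2 label, and 7051, 7544 and 6593 in GFP-positive cells under control and 11637, 10941 and 10883 under SIX2. Transcripts of 9 other gene models, mostly pseudogenes, share at least 95% identity with Phgdh over at least 200 bases, so its reads are uncertain to that extent. Psat1, the second enzyme, had 4059, 3621 and 3831 in GFP-negative cells under the control label and 5455, 5736 and 5616 under the SIX2 label, and 3785, 3715 and 3481 in GFP-positive cells under control and 6315, 6069.8 and 5697 under SIX2. The SIX2-labelled libraries of Psat1 lay above all control-labelled ones, with log2 changes of 0.55 ± 0.06 and 0.72 ± 0.06 (limma-trend adjusted p = 5.08e-05 and 6.67e-06). The corresponding changes of Phgdh were 0.53 ± 0.06 and 0.66 ± 0.06 (adjusted p = 6.81e-05 and 1.32e-05).

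Shmt2, the mitochondrial serine hydroxymethyltransferase, had 3468, 3503 and 3479 in GFP-negative cells under the control label and 4985, 5205 and 4841 under the SIX2 label, and 3416, 3615 and 3294 in GFP-positive cells under control and 5531, 4932 and 4969 under SIX2. Mthfd2, which oxidizes the folate unit made by SHMT2, had 2992, 2896 and 3215 in GFP-negative cells under the control label and 3723, 3888 and 4109 under the SIX2 label, and 3273, 3297 and 3074 in GFP-positive cells under control and 4287, 4228 and 3660.3 under SIX2. Both were higher in every SIX2-labelled library than in any control-labelled one. The log2 changes of Shmt2 were 0.52 ± 0.06 and 0.58 ± 0.06 (limma-trend adjusted p = 6.11e-05 and 3.02e-05). Mthfd2 changed less, by 0.36 ± 0.07 and 0.33 ± 0.07 (adjusted p = 0.00244 and 0.00537). Asns, asparagine synthetase, whose promoter is printed above, had 4003, 4413 and 4685 in GFP-negative cells under the control label and 6046, 6103 and 6413 under the SIX2 label, and 4415, 5044 and 4864 in GFP-positive cells under control and 6617, 6471 and 5935 under SIX2. Here too no SIX2-labelled library fell to the level of a control, and the log2 changes were 0.50 ± 0.07 and 0.41 ± 0.07 (adjusted p = 0.000232 and 0.00127).

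Amino acid transporters of the branch passed the threshold in 1 population each. Slc3a2, the heavy chain shared by several transporters, rose from 5502 ± 191 to 6823 ± 282 in GFP-negative cells (limma-trend adjusted p = 0.00193). In the GFP-positive population its log2 change was 0.16 (adjusted p = 0.0761). Slc7a5, its partner in leucine uptake, had 874, 886 and 916 in GFP-negative cells under the control label and 911, 721 and 675 under the SIX2 label, and 748, 672 and 811 in GFP-positive cells under control and 909, 931 and 996 under SIX2. Slc7a5 rose in GFP-positive libraries (log2 0.35 ± 0.11, adjusted p = 0.0359), without overlap, and had −0.23 ± 0.11 in GFP-negative libraries (adjusted p = 0.151), where the groups overlap. The GFP-positive call of Slc7a5 ended under 8 of 21 alternatives. Slc7a11, the cystine importer, had 64.3, 61.0 and 84.4 against 136, 173 and 126 in GFP-negative libraries, a log2 change of 1.04 ± 0.27 (adjusted p = 0.0111). Without GFP-negative SIX2 library 2 the adjusted p was 0.0525. In GFP-positive libraries Slc7a11 had 137, 79.7 and 62.4 against 100.04, 125 and 97.7, which overlap (adjusted p = 0.512). Its longest annotated transcript shares sequence with tubulin genes, so its low counts are uncertain. With limma-trend no transporter passed the test of the difference between the populations, given below.

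Chac1, which degrades glutathione, had 296, 295 and 356 in GFP-negative cells under the control label and 658, 528 and 564 under the SIX2 label, and 286, 223 and 322 in GFP-positive cells under control and 709, 651 and 615 under SIX2. Its log2 changes were 0.88 ± 0.14 and 1.26 ± 0.14 (limma-trend adjusted p = 0.000569 and 4.7e-05), and the SIX2-labelled libraries lay above all controls. Sesn2, a stress-induced sensor of leucine and inhibitor of mTORC1, had 191, 146 and 179 in GFP-negative cells under the control label and 463, 432 and 369 under the SIX2 label, and 97.9, 185 and 183 in GFP-positive cells under control and 438, 335 and 410.3 under SIX2. Again the labels did not overlap, and the log2 changes were 1.29 ± 0.22 and 1.39 ± 0.22 (adjusted p = 0.000777 and 0.000578). Ddit4, another inhibitor of mTORC1, rose in GFP-positive libraries from 177 ± 35.7 to 284 ± 27.8 (log2 0.69 ± 0.16, adjusted p = 0.00643). Its GFP-negative libraries, 186, 208 and 194 against 298, 255 and 248, did not overlap but missed the threshold (log2 0.44, adjusted p = 0.0517), which edgeR and DESeq2 passed. Vldlr, a lipoprotein receptor induced by ATF4, had log2 changes of 0.10 and 0.23 (adjusted p = 0.558 and 0.15).

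**Figure D2:**
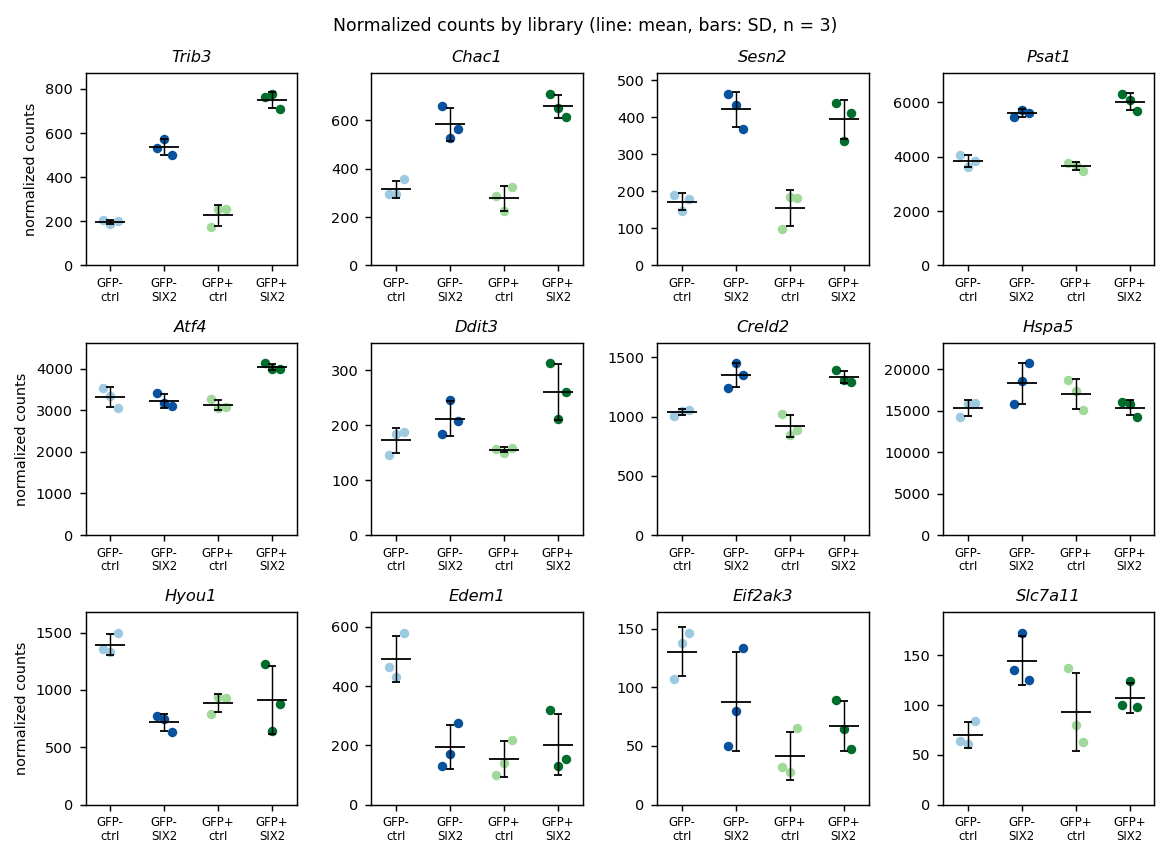
Normalized counts of 12 members in each library (points), with the group mean (line) and SD (bars, n = 3), on linear axes from 0. Trib3, Chac1, Sesn2 and Psat1 are higher in all SIX2-labelled libraries than in any control, Atf4 is highest in the GFP-positive SIX2 libraries, and Hyou1, Edem1 and Eif2ak3 have their highest mean in the GFP-negative control libraries.

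Of the ER chaperones, 1 was called in both populations and 9 in 1 of them. Creld2, a small ER protein induced by ER stress and the member called in both, had 1007, 1046 and 1055 in GFP-negative cells under the control label and 1244, 1448 and 1354 under the SIX2 label, and 1020.4, 842 and 886 in GFP-positive cells under control and 1389.8, 1309 and 1294 under SIX2. Its SIX2-labelled libraries lay above all controls, with log2 changes of 0.38 ± 0.09 and 0.54 ± 0.09 (limma-trend adjusted p = 0.00581 and 0.000632). Hspa5, the main ER chaperone BiP and the most used readout of the unfolded protein response, had 14272, 15851 and 15874 against 15763, 18531 and 20714 in GFP-negative libraries. In GFP-positive libraries it had 18701, 17386 and 15114 against 16019, 15813 and 14288. The labels overlapped in both populations, and the log2 changes were 0.25 ± 0.10 and −0.15 ± 0.10 (adjusted p = 0.0721 and 0.314). In GFP-negative cells 3 of 21 alternatives called Hspa5 higher, DESeq2 among them (adjusted p = 0.0456).

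In GFP-negative libraries Hsp90b1, the ER member of the HSP90 family, rose from 8819 ± 665 to 12417 ± 1466 (log2 0.49, limma-trend adjusted p = 0.00527). Its exons overlap an antisense transcript by 415 bases. Canx, the membrane lectin chaperone calnexin, rose by 0.30 ± 0.07 (adjusted p = 0.00784), and Manf, a secreted protective factor, by 0.53 ± 0.10, from 1424 to 2072 (adjusted p = 0.00152). Smaller calls were Sdf2l1, a BiP cofactor (0.35, adjusted p = 0.0412), and the disulfide isomerase Pdia6 (0.24, adjusted p = 0.0431), and these ended under 8 and 10 of 21 alternatives. In GFP-positive libraries these 5 genes had log2 changes of 0.13, 0.02, 0.14, 0.09 and 0.01 in the same order, with adjusted p from 0.335 to 0.965. There, the soluble lectin chaperone Calr rose by 0.24 ± 0.06 (adjusted p = 0.00719) and the disulfide isomerase Pdia4 by 0.48 ± 0.10, from 2505 ± 159 to 3514 ± 533 (adjusted p = 0.00295). In GFP-negative libraries Calr and Pdia4 had 0.12 and 0.10 (adjusted p = 0.119 and 0.488).

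A pair of members, both ER chaperones, fell in GFP-negative libraries. This is 13.3% of that branch, near the 14.3% of all tested genes called lower there. Hyou1 (GRCm38 chr9:44379490-44392369, plus strand), an exchange factor and chaperone of the HSP70 family, had 1358, 1329.5 and 1497 in GFP-negative cells under the control label and 769.7, 744 and 633 under the SIX2 label, and 794, 936 and 931 in GFP-positive cells under control and 1222, 639 and 874 under SIX2. The GFP-negative control libraries were above all others, and the log2 changes were −0.97 ± 0.18 in GFP-negative cells (limma-trend adjusted p = 0.00119) beside −0.01 ± 0.18 in GFP-positive cells (adjusted p = 0.984). Edem1 (chr6:108828641-108859356, plus strand), which marks misfolded glycoproteins for degradation, had 465, 432 and 579.7 in GFP-negative cells under the control label and 131, 172 and 276 under the SIX2 label, and 100.2, 141 and 219 in GFP-positive cells under control and 319.8, 131 and 155 under SIX2. It, too, was higher in the GFP-negative control libraries than in the other 9, with log2 changes of −1.40 ± 0.35 (adjusted p = 0.00902) and 0.35 ± 0.35 (adjusted p = 0.519). With a trend in transcript GC content removed, both remained called lower in GFP-negative cells, Edem1 at −1.31 (limma-trend adjusted p = 0.000823 for Hyou1 and 0.00889 for Edem1). The remaining ER members passed neither plasmid-label comparison: Xbp1, the transcription factor of the IRE1 arm (0.12 and −0.09 on the log2 scale), Dnajb9, a cochaperone induced by XBP1 (−0.08 and −0.26), and the degradation factors Herpud1 (0.19 and 0.22) and Sel1l (−0.01 and −0.07).

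The branches were also set side by side library by library. For each library, each gene's log2 value was set against its mean over the 12 libraries and averaged over the branch. The ATF4 branch lay between −0.16 and −0.07 in GFP-negative control and between 0.16 and 0.23 in GFP-negative SIX2 libraries. It lay between −0.41 and −0.21 in GFP-positive control and between 0.03 and 0.45 in GFP-positive SIX2 libraries. The lowest SIX2-labelled value, in GFP-positive SIX2 library 3, is that of the library with Cebpb at 0, and without Cebpb the range of this group was 0.24 to 0.41. The ER chaperones lay between −0.02 and 0.09 in GFP-negative control and −0.03 and 0.15 in GFP-negative SIX2 libraries, which overlap. In GFP-positive libraries they lay between −0.16 and −0.08 under the control label and −0.06 and 0.09 under the SIX2 label. With the median over members in place of the mean, the overlap of the ER chaperones was the reverse. Their GFP-negative medians, −0.18 to −0.01 under control and 0.04 to 0.20 under SIX2, did not overlap. The GFP-positive medians, −0.15 to 0.06 and −0.003 to 0.02, did. The branch difference, ATF4 branch minus ER chaperones, was −0.15 ± 0.04 (SD, n = 3) and 0.11 ± 0.08 in GFP-negative control and SIX2 libraries, and −0.22 ± 0.15 and 0.25 ± 0.17 in the GFP-positive groups. No test was run on these averages, since the members were chosen with earlier results of these data known.

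**Figure D3:**
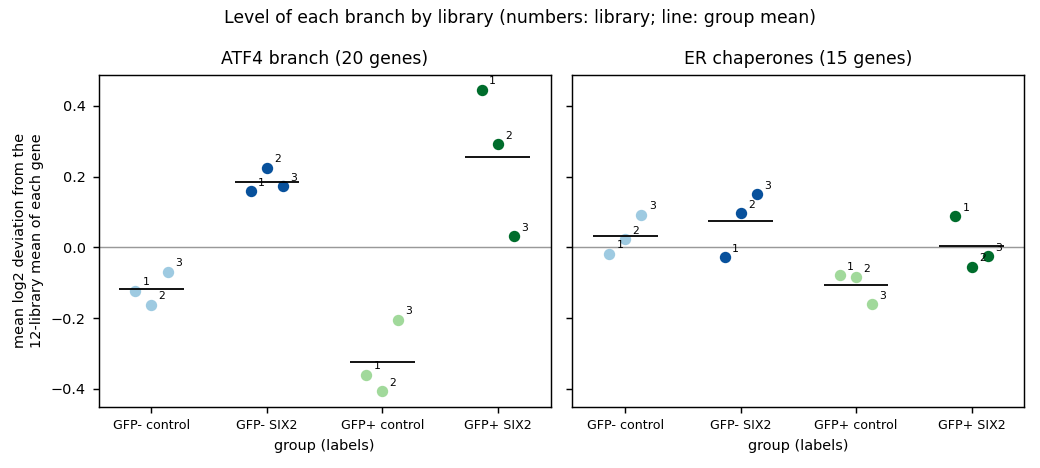
Mean log2 deviation of each branch from the 12-library mean of its genes, for each library (points, numbered by library) and group (line). ATF4 branch values are above 0 in all 6 SIX2-labelled libraries and below 0 in all 6 controls. The ER chaperone means lie between −0.16 and 0.15 with the GFP-negative labels overlapping, while the medians of these labels, not drawn, do not overlap.

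The design also asks whether the plasmid-label effect differs between the populations. With limma-trend 0 of 35 members passed, as did 0% of all 14580 genes, 12 members had an unadjusted p under 0.05 (4 of the ATF4 branch and 8 ER chaperones), and edgeR called 0. Of all genes, 2437 had an unadjusted p under 0.05. The smallest adjusted p belonged to Atf4, with a difference of 0.41 ± 0.09 (GFP-positive minus GFP-negative effect, adjusted p = 0.0995), followed by Hyou1 at 0.96 ± 0.25 (adjusted p = 0.111), Slc7a5 at 0.58 ± 0.16 (adjusted p = 0.119) and Edem1 at 1.76 ± 0.50 (adjusted p = 0.129). DESeq2 on recovered reads called 3 of them, Hyou1, Slc7a5 and Atf4, at adjusted p of 0.00416, 0.0314 and 0.00809. Among ER chaperones, 9 of 15 differences were negative, Hspa5 at −0.40, Manf at −0.39 and Hsp90b1 at −0.36 (limma-trend adjusted p = 0.183, 0.199 and 0.267). Calls in 1 population and not in the other, such as those of the transporters, are therefore not shown to differ between populations by limma-trend.

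Between the sorted populations few members were called. Under the control label 0 of 35 were called higher and 2 lower in the GFP-positive population, 1 in each branch. Of all genes, 0.919% were called higher and 2.56% lower. Eif2ak3 (GRCm38 chr6:70844515-70905245, plus strand), the ER stress kinase PERK, had 107, 138 and 146 in GFP-negative cells under the control label and 49.98, 79.7 and 134 under the SIX2 label, and 32.1, 27.7 and 65.0 in GFP-positive cells under control and 89.3, 64.3 and 47.2 under SIX2. Its GFP-positive control libraries lay below all GFP-negative control libraries (log2 −1.71 ± 0.38, limma-trend adjusted p = 0.0296). The plasmid-label changes of Eif2ak3 were −0.67 and 0.73, neither past the threshold (adjusted p = 0.222 and 0.198). The other member was Edem1, whose values are given above (log2 −1.74 ± 0.35, adjusted p = 0.02). Hyou1 and Pdia4 were the nearest to them, at −0.65 and −0.35 (adjusted p = 0.0581 and 0.0623).

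This comparison and the plasmid-label comparison of GFP-negative cells share the GFP-negative control libraries. Both calls were lost, with adjusted p of up to 0.0883 for Edem1 and 0.121 for Eif2ak3, when any GFP-negative control library or GFP-positive control library 1 or 2 was left out. Transcripts in the top 10% by the GC content of their most GC-rich window deviated by 0.08 to 0.13 (median, log2) in the GFP-negative control libraries and by −0.11 to 0.07 in the others. The windows of Eif2ak3, Cebpb and Edem1 ranked at the percentiles 93.3, 98.5 and 83.0 of tested genes, and that of Hyou1 at 26.4. With that GC trend removed, the differences were −1.56 for Eif2ak3 (limma-trend adjusted p = 0.0318) and −1.63 for Edem1 (adjusted p = 0.0188). Eif2ak3 shares 485 exon bases with an antisense transcript, from which its reads cannot be told apart.

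Under the SIX2 label 0 of 35 members were called between the populations, with limma-trend and with edgeR, and 6 had an unadjusted p under 0.05. Of all 14580 genes tested, 1893 had an unadjusted p under 0.05, and 0.0137% were called higher and 0.178% lower. Atf4 had the smallest adjusted p, 0.0811, with a log2 difference of 0.32 ± 0.07 and no overlap, and Trib3 had 0.49 ± 0.14 (adjusted p = 0.174), also without overlap. DESeq2 called Trib3 and Atf4, at adjusted p of 0.0393 and 0.00296. The median difference of the ATF4 branch was −0.05 under the control label and 0.07 under the SIX2 label, and that of the ER chaperones was 0.06 and −0.11.

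**Figure D4:**
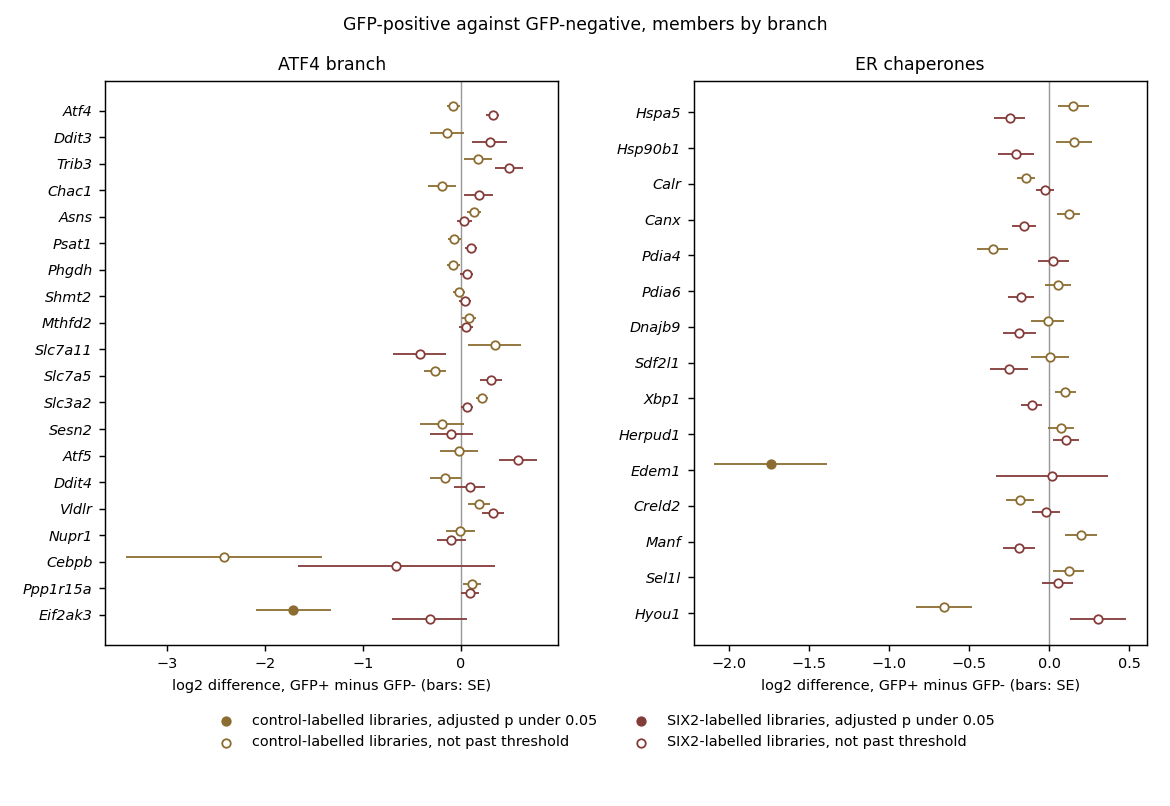
Log2 difference of each member between GFP-positive and GFP-negative libraries, under the control label (brown) and the SIX2 label (dark red), with SE bars; filled points passed the threshold. Eif2ak3 and Edem1 under the control label are the called members, at −1.71 and −1.74. The 2 panels have different scales.

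Other genes of these pathways, from lists chosen beside the members, were read for the same comparisons. Their counts stand beside all-gene shares of 13.6% higher and 14.3% lower in GFP-negative and of 12.1% and 11.2% in GFP-positive libraries. Of 27 tested further ATF4 targets, 13 rose and 1 fell (Sqstm1, an autophagy receptor) in GFP-negative libraries and 14 rose and none fell in GFP-positive libraries, with a median log2 change of 0.40 and 0.49. Gdf15, a stress-induced hormone, rose by 1.00 ± 0.19 and 1.40 ± 0.19 (limma-trend adjusted p = 0.00165 and 0.000194). Mthfd1l, the next mitochondrial folate enzyme after MTHFD2, rose from 527 ± 57.4 to 903 ± 83.6 and from 538 ± 41.8 to 971 ± 99.1 normalized counts (log2 0.78 and 0.85). Eif4ebp1, a repressor of translation initiation, rose by 0.43 ± 0.05 and 0.46 ± 0.05, and Pycr1, of proline synthesis, by 0.43 ± 0.08 and 0.57 ± 0.08.

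The tRNA synthetases, which charge tRNAs and are in part ATF4 targets, moved less. Of 21 tested genes, 8 rose and 1 fell in GFP-negative libraries and 7 rose and 2 fell in GFP-positive libraries, with median changes of 0.12 and 0.08. The smallest p belonged to Cars (log2 0.39 and 0.41), Nars (0.31 and 0.34), Mars1 (0.28 and 0.38) and Aars (0.24 and 0.33), for cysteine, asparagine, methionine and alanine, all past the threshold in both.

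Of 36 tested other genes of ER folding, translocation and degradation, 9 rose and 5 fell in GFP-negative and 3 rose and 7 fell in GFP-positive libraries, with medians of 0.06 and −0.02. The GFP-negative share called lower was near that of all genes, and the GFP-positive share called higher was below it. Sec61a1, the channel through which proteins enter the ER, rose by 0.39 ± 0.08 and 0.52 ± 0.08 (limma-trend adjusted p = 0.0028 and 0.000478). Ssr1, a subunit of the translocon, rose in GFP-negative libraries by 0.61 ± 0.09 and had 0.10 in GFP-positive ones (adjusted p = 0.000319 and 0.508). The degradation factors Os9 and Selenos fell, Os9 with log2 changes of −0.45 ± 0.10 and −0.59 ± 0.10 (adjusted p = 0.00378 and 0.000707) and Selenos with −0.25 and −0.54 (adjusted p = 0.0495 and 0.000609).

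Of 12 sensors, kinases and phosphatase subunits upstream of both branches, 2 rose and 3 fell in each population. The count of 2 higher is near the all-gene share, and that of 3 lower is too small to set apart from it. Atf6, the ER stress sensor, had log2 changes of −0.33 ± 0.10 and −0.32 ± 0.10 (limma-trend adjusted p = 0.0277 and 0.033). Eif2ak1, the heme-regulated eIF2alpha kinase, had −0.24 and −0.26, and the adaptor Nck1 −0.35 and −0.37, all called lower. Mbtps1, the protease that activates ATF6, rose in GFP-positive libraries (0.30, adjusted p = 0.019) and missed the threshold in GFP-negative ones (0.23). Of 9 mitochondrial chaperones and proteases, 2 rose and 1 fell in each population, counts too small to set apart from the all-gene shares. Hspd1, the mitochondrial HSP60, rose by 0.59 and 0.30 and the protease subunit Clpp by 0.34 and 0.58, while Dnaja3 fell in GFP-negative (−0.19) and Yme1l1 in GFP-positive libraries (−0.37).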

How the data were processed

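Complementary DNA of cultured muscle stem cells was made by SMART-Seq2 and fragmented with Tn5, per the labels' protocols. Per the submitters' processing notes, the tools were STAR 2.7.11a, RSEM 1.3.3, DESeq2 1.42.0, FastQC 0.12.1 and MultiQC 1.19, with the build GRCm38 and no settings given. The values are normalized counts, a linear signal that the authors deposited after dividing each library's counts by a size factor. All values (100%) were whole multiples, within 0.0001, of what 1 read was worth in the library, and these whole reads gave the depths.

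limma 3.58.1 (R 4.3.3, limma-trend, two-sided) was fitted to log2(normalized count + 1) with a mean for each of 4 groups, on the 14580 genes that reached 10 normalized counts in 3 or more libraries, with Benjamini-Hochberg adjustment over all of them. Fold changes on this scale understate those of low genes. edgeR 4.0.16 and DESeq2 1.42.0 were run on the recovered reads as alternatives, which called 4064 and 4499 genes between the GFP-negative groups. On reads simulated with known changes, the fit recovered 48% of 1.5-fold and 79% of 2-fold changes for the GFP-negative comparison (14331 genes, 11 false calls). For the GFP-positive one it recovered 44% and 83% (14351 genes, 6 false calls). Only 100 genes were changed at each fold and all others had equal means, while the data hold many more calls. Recovery in the data may therefore differ.

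The members and lists were chosen with earlier results of these data known. Members were described in every library where called in both plasmid-label comparisons or between GFP labels, or where the signs differed with a call, and up to 4 genes of each other list by smallest p. Shared replicate numbers were not used to pair the libraries in the fit reported. Replicates differed by more than sampling noise (chi-square per degree of freedom 7.71 to 49.4). GENCODE M21 gave gene overlaps (99.8% of identifiers matched), blastn the near-identical copies, and RefSeq the promoters. Figures were drawn with matplotlib 3.10.9.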

Additional observations from a re-analysis of the deposited data

How the results depend on the processing

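Each result was recomputed under 21 alternatives (another pseudocount, no filter, TMM scaling, quantile normalization, edgeR, DESeq2, only the compared libraries, a replicate block, each library left out, and a GC trend removed, which was chosen after seeing the data). Under all of them 16 of 20 called GFP-negative plasmid-label changes and 15 of 16 GFP-positive ones remained past the threshold, and 0 of the 2 calls between GFP labels did. No called member changed sign. Members that passed a plasmid-label comparison under an alternative and not in the fit reported were Calr, Ddit4, Xbp1, Vldlr, Hspa5, Herpud1, Slc7a5, Slc3a2, Ppp1r15a and Cebpb, under 1 to 5 alternatives each. Slc7a5 (log2 −0.35 without GFP-negative SIX2 library 1) and Cebpb were called lower there, both in GFP-negative libraries, and the others higher.

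DESeq2 called 1087 genes between GFP labels under control, with 2 ATF4 branch and 3 ER chaperone members, 294 under SIX2, with 2 ATF4 branch members, and 558 for the difference of plasmid-label effects, with 2 ATF4 branch members and 1 ER chaperone. edgeR called 4064, 3299, 440, 29 and 0 genes in the 5 comparisons. With only the compared libraries in the fit, 3 ER chaperones were called between GFP labels under control, and with the GC trend removed 3 genes were called for the difference of effects. The cause of these shifts was not tested.

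Leaving out 1 library at a time, the count of genes called between GFP labels was 68 to 820 under control, lowest without GFP-negative control library 1 and highest without GFP-positive control library 3, with 0 to 2 ATF4 branch members and 0 to 3 ER chaperones. Under SIX2 it was 13 to 60 (without GFP-negative SIX2 library 3 and library 1), and for the difference of effects 0 to 171 (highest without GFP-positive control library 3). The GFP-positive median of the ATF4 branch minus that of the ER chaperones, 0.40 in all libraries, was 0.34 to 0.60, highest without GFP-positive SIX2 library 3.

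Same-numbered libraries did not deviate together (correlations of −0.20 to 0.05 over all same-numbered pairs). This cannot show whether they share an animal or culture. With the replicate number as a block, 298 genes were called between GFP labels under control, beside 507 without it, and 3740 and 3153 between plasmid labels, beside 4075 and 3394. The calls of Pdia6, Sdf2l1, Ppp1r15a and Slc7a5 were lost with this block. Depth limits Cebpb (0 to 73 reads), Eif2ak3 (29 to 222) and Slc7a11 (30 to 262).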
